A study of Mus musculus with 29 samples.

Results

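C2C12 mouse myoblasts that had received a control oligonucleotide were compared with C2C12 myoblasts that had received nothing. The comparison used 7 of the 29 arrays of the study: 6 arrays of control-transfected cells and the 1 array of untransfected proliferating cells, chosen by their labels. Each of 3 control transfections was measured on an array and on a technical replica of the same number, and the 2 arrays were averaged, which gave 3 control values against 1 untransfected value. The other arrays of the study, 21 of cells given 1 of 7 microRNA mimics and 1 of terminally differentiated untransfected myotubes, are given below only as levels beside this comparison.

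All cells were wild type C2C12 at passage 27, kept in DMEM with 10% fetal bovine serum at 60 to 80% confluence. The control cells received AllStar, a negative control oligonucleotide from Qiagen, at 50 nM with the lipid reagent Hiperfect, and total RNA was taken 36 h later with Trizol. The untransfected cells were labelled as proliferating, at 70% confluence. The control transfections came from 3 independent experiments, whereas the untransfected myoblasts were measured once, so the oligonucleotide, the reagent, the added culture time, the density of the cells and the properties of that single culture cannot be told apart. Differences are given as control minus untransfected on the log2 scale, with the standard error of a linear model (limma) whose spread came from the replicates of all 8 transfected groups, with 16 residual degrees of freedom. An exact permutation test of 3 values against 1 could not give a one-sided p below 0.25, so no such test was used.

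C2C12 cells descend from satellite cells, the stem cells of skeletal muscle. While they divide they keep the muscle determination factors Myod1 and Myf5. When growth factors run short or neighbours touch, they leave the cell cycle, switch on myogenin (Myog), fuse and build sarcomeres, the contractile units of muscle, and dividing and differentiating are largely exclusive states of one cell. Double-stranded RNA carried into cells by lipids can be sensed by endosomal and cytosolic receptors, which switch on interferon-stimulated genes and inflammatory cytokines.

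Of 19938 genes measured, 1807 (9.06%) passed an adjusted p of 0.05 in limma. Of these, 874 (4.38%) were higher and 933 (4.68%) were lower after control transfection, and at a change of at least 2-fold the counts were 47 higher and 233 lower. The split depended on scaling: higher genes were 48.4% of those called, 33.3% after further quantile normalization and 30.6% with the median of each array set to 0. The untransfected value lay outside the 3 control values for 13495 genes (67.7%), so that lying outside them is in itself common. It lay above all 24 transfected values, mimics included, for 6.20% of genes and below all of them for 6.38%. The middle 90% of all differences ran from -0.46 to 0.42, the median standard error was 0.14 and the median SD among control values was 0.08. Across genes, control arrays of different transfections correlated at 0.9953 to 0.9985, technical replicas at 0.9983 to 0.9985, and control arrays with the untransfected myoblast array at 0.9882 to 0.9908.

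**Figure D1:**
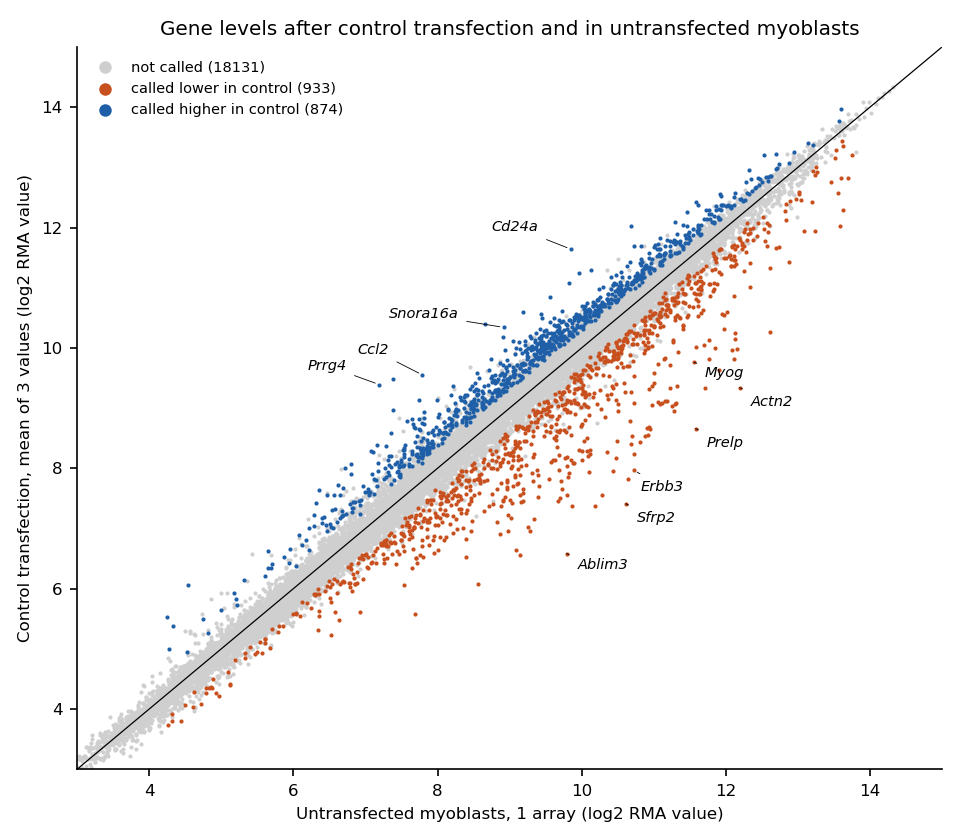
Level of each of 19938 genes in untransfected myoblasts (x axis, 1 array, log2 RMA value) and after control transfection (y axis, mean of 3 values), with the line of equality. The 933 genes called lower (orange) reach farther from the line than the 874 called higher (blue), down to -3.20 for Ablim3 and up to 2.21 for Prrg4.

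Genes of the contractile apparatus were lower after control transfection than in the untransfected myoblasts. Of 53 measured genes of the sarcomere and its calcium and energy supply, 45 passed as lower and 0 as higher, beside 4.68% of all genes called lower, with a median difference of -1.80 against -0.01 over all genes. The untransfected array lay above all 3 control values for 52 of the 53, beside 6777 of all 19938 genes. It lay above all 24 transfected values for 48, beside 6.20% of all genes. The mean level of the list was 9.42, 9.24 and 9.23 in the control transfections (9.30 ± 0.11, SD, n = 3), 10.85 in the untransfected myoblasts and 11.96 in the myotubes. The array labelled as proliferating carried the transcripts of differentiated muscle at levels between those of the control transfections and of the myotubes. In bulk RNA, more cells with these transcripts and more transcripts per cell cannot be told apart.

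**Figure D2:**
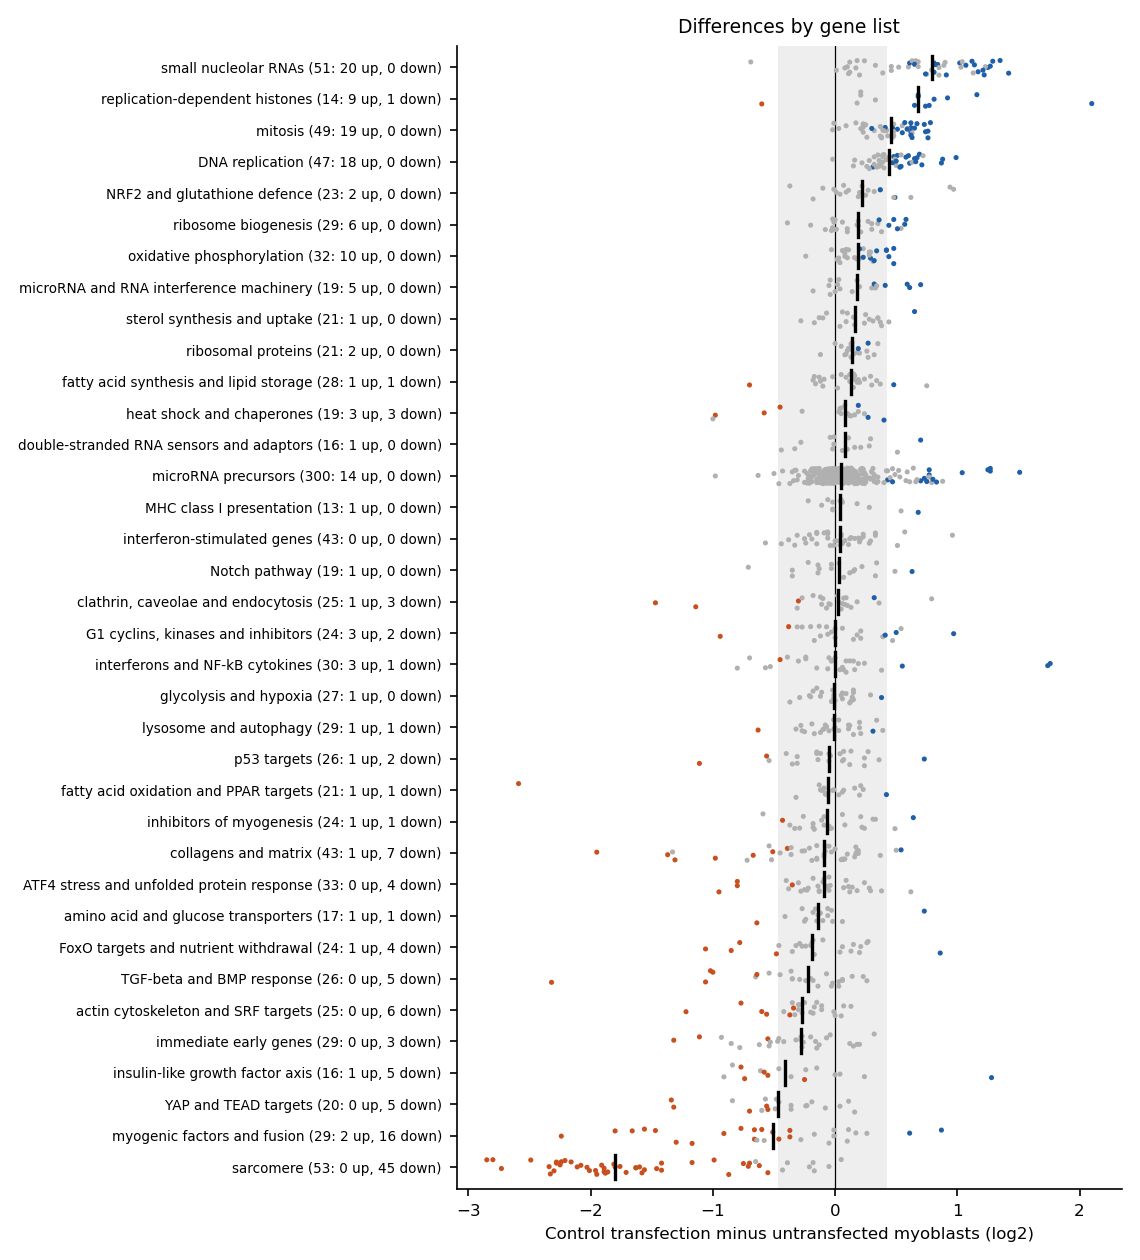
Difference between control transfection and untransfected myoblasts (x axis, log2) for the members of each gene list, ordered by the median (black bar), with the number measured and the numbers called. Blue and orange points are called higher and lower, and the grey band holds the middle 90% of all genes, from -0.46 to 0.42; the sarcomere median is -1.80 and that of small nucleolar RNAs 0.79.

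The promoters of this group carried sequences that muscle regulators read. The E-box CAGCTG, which myogenic factors bind, was searched on both strands of the 300 bases around each gene's start, as was the MEF2 site, which the MEF2 factors bind. Of the 42 sarcomere genes with a promoter in the RefSeq table (GRCm38.p6), 20 (47.6%) held the E-box, against 15.9% of the 15614 promoters of all genes tested, and 9 (21.4%) held a MEF2 site, against 2.6%. Over all genes called lower the shares were 23.5% for the E-box and 5.6% for the MEF2 site, and over all called higher 13.5% and 1.0%. Klhl41, a protein of sarcomere assembly, and Pgam2, the muscle phosphoglycerate mutase, are shown because each holds both, with no overlap between the matches (capitals; E-box first, then MEF2 site). They lie at chr2:69669870-69670169 on the plus strand and chr11:5803747-5804046 on the minus strand, and the E-box begins 127 bases before the start of Klhl41 and 125 before that of Pgam2. A match is a description of the letters and does not show that a factor binds there.
Klhl41: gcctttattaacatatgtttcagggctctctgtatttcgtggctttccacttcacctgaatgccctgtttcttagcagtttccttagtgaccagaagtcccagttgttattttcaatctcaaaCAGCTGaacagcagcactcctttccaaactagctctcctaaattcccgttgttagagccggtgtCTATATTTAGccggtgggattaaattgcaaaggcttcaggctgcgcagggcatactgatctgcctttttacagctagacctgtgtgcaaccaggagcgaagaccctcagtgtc
Pgam2: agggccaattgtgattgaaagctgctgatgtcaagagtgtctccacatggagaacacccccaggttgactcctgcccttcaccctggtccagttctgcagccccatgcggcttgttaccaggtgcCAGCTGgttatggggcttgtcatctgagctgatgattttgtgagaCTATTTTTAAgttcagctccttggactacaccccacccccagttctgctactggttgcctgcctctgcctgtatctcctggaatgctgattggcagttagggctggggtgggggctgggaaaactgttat

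Klhl41 had values of 9.80, 9.61 and 9.48 in the control and 11.91 in the untransfected myoblasts, a difference of -2.28 ± 0.34 (adjusted p = 9.2e-05, limma), with 13.08 in the myotubes. Pgam2 had 8.31, 7.95 and 8.0 against 9.90, a difference of -1.81 ± 0.20, with 11.44 in the myotubes. For both, the untransfected value lay above every transfected one. Among the MEF2 factor genes, Mef2c, which differentiating muscle switches on, had 9.25, 8.86 and 9.06 against 11.29 (-2.24 ± 0.30, adjusted p = 3e-05, limma). Mef2a differed by -0.66 and Mef2d by -0.66. Whether these levels bear on the sarcomere genes was not tested. Mef2d did not pass without control replicate 2 (adjusted p = 0.082) or 3 (adjusted p = 0.091).

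Among myosins and their binding proteins, 10 of 13 passed as lower and 0 as higher, with a median of -1.88. Over all genes, 4.68% passed as lower and 4.38% as higher. Embryonic myosin heavy chain, Myh3, an early marker of differentiation, had 10.10, 9.97 and 9.84 in the control and 12.08 in the untransfected cells (-2.11 ± 0.27, adjusted p = 2.1e-05). Its neonatal relative Myh8 had 7.87, 7.26 and 7.51 against 10.28 (-2.73 ± 0.29). Mybpc1, slow myosin binding protein C, had 7.51, 7.19 and 7.46 against 10.19, a 6.97-fold difference. In none of the 3 did the groups overlap, which also held for 67.7% of all genes. The slow ventricular light chain Myl2 was the least different, at 6.32 on average against 6.38, and the fast adult heavy chain Myh2 differed by -0.43 without passing. Myosin heavy chain genes lie side by side and resemble each other, so signal shared between their probes was not separated here.

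Of 15 thin filament genes 13 passed as lower, with a median of -1.46, beside 4.68% of all genes called lower. Nebulin (Neb), which sets the length of the thin filament, was the lowest: 9.27, 9.09 and 8.90 against 11.12 (-2.03 ± 0.26). Skeletal actin, Acta1, was already high in the control, at 12.69, 12.58 and 12.45, and stood at 13.56 in the untransfected cells (-0.99 ± 0.21, adjusted p = 0.00332). Cardiac troponin T, Tnnt2, which myoblasts make early, differed by only -0.55 (adjusted p = 0.0176), and this passed with all 3 control values but not without control replicate 3 (adjusted p = 0.052). Tpm1 and Nebl did not pass.

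Of 12 genes of titin, the Z-disc and the M-band, 11 passed as lower, with a median of -1.90, beside 4.68% of all genes. Alpha-actinin 2 (Actn2), which crosslinks actin at the Z-disc, had 9.59, 9.11 and 9.31 in the control and 12.19 in the untransfected cells, a 7.23-fold difference (-2.85 ± 0.32, adjusted p = 3.7e-06). Titin, Ttn, the molecular spring, had 8.82, 9.37 and 9.11 against 11.06 (-1.96 ± 0.32). Tcap, the titin cap, differed by -0.39 and did not pass. Outside the list, 2 further partners of actin were among the largest decreases of all genes: Ablim3, an actin-binding LIM protein, had 6.81, 6.30 and 6.64 against 9.79 (-3.20 ± 0.28), and Sorbs2, a Z-disc adaptor, had 8.14, 7.65 and 7.67 against 10.64 (-2.82 ± 0.25).

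Calcium handling genes, which couple excitation to contraction, gave the lowest median of these groups with more than 5 members, -2.21. Of the 7, 6 passed as lower, beside 4.68% of all genes called lower. The calcium pump of the sarcoplasmic reticulum, Atp2a1, had 10.54, 10.32 and 9.94 against 12.61 (-2.34 ± 0.27, adjusted p = 4.5e-06). Calsequestrin 2, Casq2, which stores calcium there, had 9.26, 8.84 and 9.03 against 11.26. Of 4 energy genes 3 passed: creatine kinase, Ckm, had 9.87, 9.92 and 9.64 against 11.76 (-1.95 ± 0.28, adjusted p = 7.2e-05), whereas the enolase Eno3 differed by -0.18 and did not pass. Both assembly factors, Klhl41 and Smyd1, differed by -2.28.

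**Figure D3:**
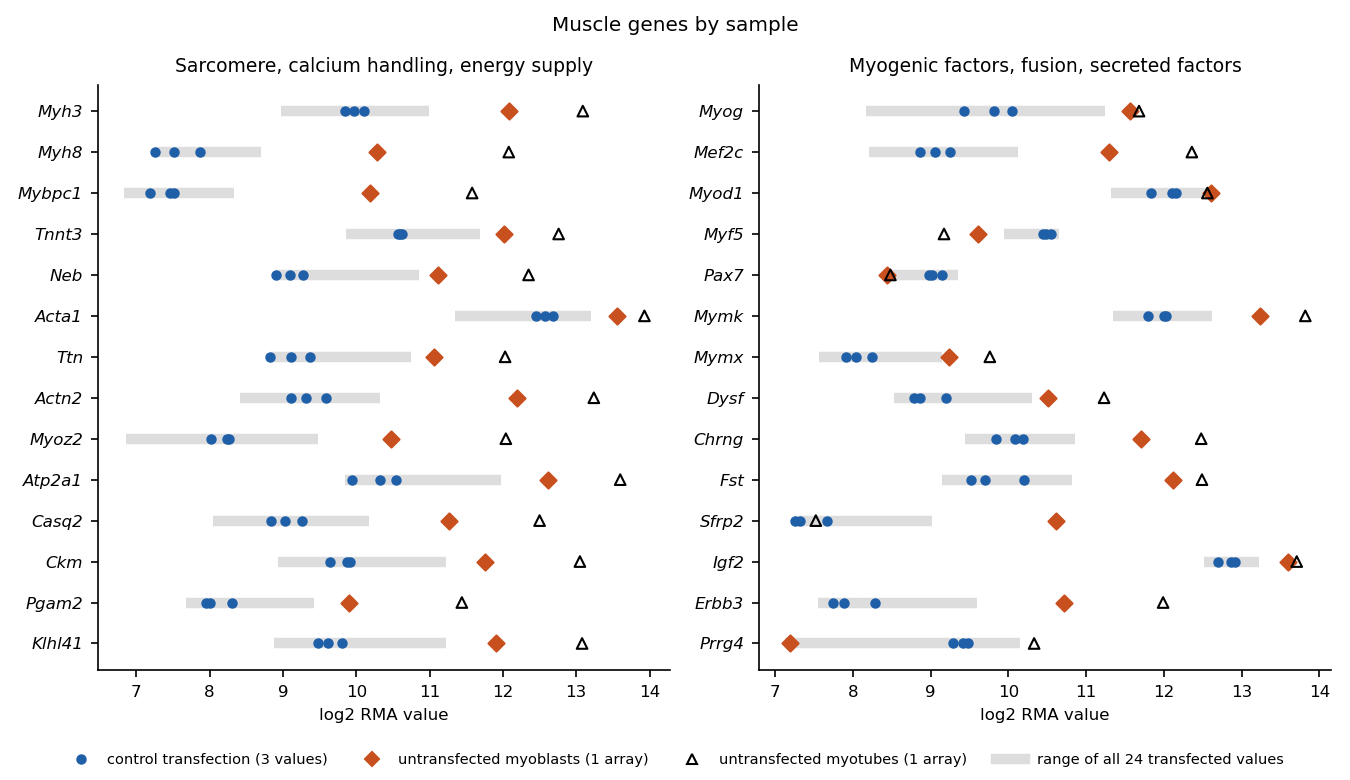
Log2 RMA values (x axis) of 14 contractile and 14 regulatory or secreted genes: 3 control values (blue dots), the untransfected myoblast array (orange diamond), the myotube array (triangle) and the range of all 24 transfected values (grey). For Actn2 the untransfected value, 12.19, lies above the grey range, which ends at 10.32, whereas Myf5, at 9.61, lies below its control values; Sfrp2 and Prrg4 differ from the other genes in where the myotube value lies.

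Myogenic regulators were called in both directions. Of 29 genes of myogenic control, fusion and the neuromuscular synapse, 16 passed as lower and 2 as higher, with a median of -0.51. Over all genes 4.68% passed as lower and 4.38% as higher. Myogenin, which commits myoblasts to differentiation, had 9.81, 10.05 and 9.43 in the control and 11.56 in the untransfected cells (Myog, -1.80 ± 0.39, adjusted p = 0.00454), close to the 11.68 of the myotubes. Myod1, expressed before and during differentiation, had 12.10, 12.15 and 11.84 against 12.61 and did not pass (-0.58 ± 0.19, adjusted p = 0.0625). Myf5 and Pax7 were the 2 that rose: Myf5, a determination factor, had 10.44, 10.55 and 10.48 against 9.61 (0.87 ± 0.15, adjusted p = 0.00034), and the satellite cell factor Pax7 had 8.98, 9.14 and 9.02 against 8.44 (0.61 ± 0.17, adjusted p = 0.03). Pax7 did not pass without control replicate 2 (adjusted p = 0.08) or 3 (adjusted p = 0.057).

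Of 13 genes of fusion and adhesion, 7 passed as lower and 0 as higher, beside 4.68% and 4.38% of all genes, and 6 did not pass. Myomaker, Mymk, had 11.94 ± 0.13 (SD, n = 3) in the control against 13.24 (-1.30 ± 0.15, adjusted p = 3.2e-06), and its partner myomixer, Mymx, had 8.04, 8.24 and 7.91 against 9.23 (-1.17 ± 0.25). Dysferlin, Dysf, which reseals muscle membrane, differed by -1.56 and caveolin 3, Cav3, by -1.47. Of the acetylcholine receptor genes, the embryonic subunit Chrng was the most different: 10.08, 10.19 and 9.84 against 11.70 (-1.66 ± 0.21). Desmin, Des, the muscle intermediate filament already abundant in myoblasts, differed by -0.37. Cadherin 15, Cdh15, differed by 0.26 and the anchoring protein Rapsn by 0.10, neither of which passed.

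Marker genes were set against the labels. The untransfected array carried raised transcripts of differentiated muscle beside myoblast markers that averaged 11.46, against 11.44 in the control, and beside replication and mitosis genes above the myotube levels. All 9 of 9 markers of differentiated muscle passed as lower in the control, beside 4.68% of all genes. For all 9 the untransfected value exceeded every transfected value, beside 6.20% of all genes. Of 10 myoblast markers, 3 passed as higher (Myf5, Pax7, Vcam1) and 4 as lower (Ncam1, Chrna1, Des, Itga7), though Itga7 did not pass without control replicate 2 (adjusted p = 0.057) or 3 (adjusted p = 0.068), nor Pax7 without the same replicates (adjusted p = 0.08 and 0.057). Markers of adipocytes, osteoblasts, fibroblasts, endothelium, leukocytes, epithelium and neurons gave 0 to 1 called gene per list and medians between -0.15 and 0.03. The called ones were Lpl, Dcn and Itgam, each lower in the control, and none of the 3 held throughout when a control replicate was left out (adjusted p up to 0.12 for Lpl, 0.09 for Dcn and 0.075 for Itgam). Whether such cells had a part in the results was not tested. Over their lists, the mean level of endothelial markers was 6.18 in the control and 6.26 in the untransfected cells, near the median of 6.65 of probe sets with no listed gene.

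Secreted regulators of muscle growth were covered by 2 lists. Of 26 genes of the TGF-beta and BMP pathways, 5 passed as lower and 0 as higher, with a median of -0.22, beside 4.68% of all genes called lower. Follistatin, Fst, which traps activins and myostatin, had 10.20, 9.70 and 9.52 against 12.12 (-2.32 ± 0.25, adjusted p = 2.6e-06). The ligands Tgfb3 (-1.06), Bmp4 (-1.0) and Inhba (-1.02) and the BMP antagonist Nog (-0.64) were lower too. Inhba, with 12.04, 11.39 and 11.56 against 12.69, did not pass without control replicate 2 (adjusted p = 0.093) or without control replicate 3 (adjusted p = 0.077).

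In the insulin-like growth factor axis, 5 of 16 genes passed as lower and 1 as higher, with a median of -0.41. Over all genes 4.68% passed as lower and 4.38% as higher. Igf2, the growth factor that differentiating myoblasts secrete, had 12.92, 12.87 and 12.70 against 13.60 (-0.77 ± 0.14, adjusted p = 0.0012), and its receptors Igf1r (-0.55) and Igf2r (-0.58) were lower. The binding protein Igfbp2 went the other way: 10.66, 10.93 and 10.92 against 9.56 (1.28 ± 0.18, adjusted p = 3.7e-05), with 9.22 in the myotubes. Erbb3, the neuregulin receptor, was among the largest decreases, at 8.28, 7.88 and 7.74 against 10.72 (-2.75 ± 0.23).

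Not all large decreases were in genes high in myotubes. Sfrp2, a secreted Wnt modulator, had 7.66, 7.25 and 7.32 in the control and 10.61 in the untransfected myoblasts (-3.20 ± 0.27, adjusted p = 1.1e-07), yet 7.52 in the myotubes. Its untransfected myoblast value lay above all 24 transfected values, which reached 9.02. Prelp, a small leucine-rich matrix protein, had 8.93, 8.61 and 8.43 against 11.58, and 9.38 in the myotubes. Fibromodulin, Fmod, of the same protein family, had 9.72, 9.20 and 9.19 against 11.32 (-1.95 ± 0.39, adjusted p = 0.00192), and 7.53 in the myotubes. Of 43 collagen and matrix genes, 7 passed as lower and 1 as higher (Fbn2, 0.54), beside 4.68% and 4.38% of all genes. The list median was -0.09, and the 7 became 4 without control replicate 2 or without control replicate 3. The elastic fibre genes Mfap5 (-1.37) and Fbln5 (-1.31) passed, while Fbn2 did not without control replicate 2 (adjusted p = 0.063) or 3 (adjusted p = 0.065). Col1a1 (0.37), Col3a1 (0.17) and Fn1 (-0.09) did not.

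Targets of YAP, the co-activator that answers to cell shape and crowding, were lower in 5 of 20 cases and higher in 0, with a median of -0.47, beside 4.68% of all genes called lower. The 5 became 1 without control replicate 2 and 2 without control replicate 3. Ccn2, a matricellular growth factor, had 12.79, 11.96 and 12.13 against 13.63 (-1.34 ± 0.39, adjusted p = 0.0308). It did not pass without control replicate 2 (adjusted p = 0.093) or 3 (adjusted p = 0.081). Crim1 (adjusted p = 0.056), Lats2 (adjusted p = 0.12) and Gadd45a (adjusted p = 0.078) did not pass without control replicate 2 either. Amotl2, which holds YAP in the cytoplasm and is itself a target, had 10.17, 10.01 and 10.03 against 10.77 (-0.70 ± 0.14, adjusted p = 0.00196). The best known targets Ccn1 (-0.49) and Ankrd1 (-0.57) did not pass.

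Among 25 genes of the actin cytoskeleton and of its regulator SRF, 6 passed as lower and 0 as higher, with a median of -0.27. The actin nucleator Lmod1 (-1.22), the LIM protein Fhl1 (-0.77) and filamin C, Flnc (-0.56), were the clearest, whereas beta-actin, Actb, was level at 14.16, 14.19 and 14.17 against 14.17. Immediate early genes, which respond within minutes to growth factors, were lower in 3 of 29 cases and higher in 0, with a median of -0.28, beside 4.68% of all genes called lower. The 3 became 1 without control replicate 2 or without control replicate 3, where Fos (adjusted p = 0.092 and 0.11) and Nr4a1 (adjusted p = 0.12 in both cases) did not pass. Dusp1, a phosphatase that switches off MAP kinases, had 11.39, 10.99 and 10.66 against 12.33 (-1.32 ± 0.31, adjusted p = 0.00703), and 12.46 in the myotubes. Egr1 and Jun did not pass.

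Genes of chromosome duplication were higher after control transfection. Of 47 DNA replication genes, 18 passed as higher and 0 as lower, beside 4.38% of all genes called higher, with a median difference of 0.44. The untransfected value lay below all 3 control values for 45 of the 47, beside 6718 of all 19938 genes. It lay below all 24 transfected values for only 1 (2.1%), beside 6.38% of all genes. Mimic group means of the list ran from 9.35 to 10.25. The mean of the list was 10.38, 10.37 and 10.36 in the control transfections, 9.90 in the untransfected cells and 8.92 in the myotubes. The 18 fell to 11 without control replicate 2 and to 11 without control replicate 3, and were 17 without control replicate 1. An E2F site, the sequence through which E2F factors switch on S phase, was more frequent in promoters of this group than in all promoters. Searched as TTTGGCGC or TTTCGCGC on both strands, it was in 10 of 40 replication promoters (25%) and in 1.2% of all promoters. Among called members it was in 2 of the 16 (12.5%). The site was in 3.4% of promoters over all genes called higher and in 0.1% over all called lower. Rfc3, a subunit of the clamp loader, is shown as a called member that holds it, beginning 10 bases before its start, at chr5:151651159-151651458 on the minus strand.
Rfc3: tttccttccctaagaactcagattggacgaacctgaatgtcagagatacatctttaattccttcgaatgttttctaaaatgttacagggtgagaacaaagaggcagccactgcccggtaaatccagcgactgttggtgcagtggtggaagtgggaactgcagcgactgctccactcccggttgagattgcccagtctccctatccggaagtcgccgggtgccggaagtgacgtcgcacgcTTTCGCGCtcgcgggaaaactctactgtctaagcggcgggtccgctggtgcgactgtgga

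Among polymerases, clamp and clamp loader, 6 of 17 passed as higher, beside 4.38% of all genes called higher. Rfc3 had 10.36, 10.47 and 10.46 against 9.56 (0.87 ± 0.22, adjusted p = 0.015), and the sliding clamp itself, Pcna, had 13.02, 13.06 and 13.07 against 12.74 (0.31 ± 0.07, adjusted p = 0.005). Of 15 genes of origin licensing and the replicative helicase, 4 passed. Gins1, part of the helicase, had 8.70, 8.49 and 8.81 against 7.68 (0.99 ± 0.18, adjusted p = 0.00106), and the origin recognition subunits Orc1 (0.69) and Orc6 (0.71) passed. None of Mcm2 to Mcm7, the helicase ring, passed, although their differences ran from 0.28 for Mcm5 to 0.44 for Mcm6. Of 6 S phase regulators 3 passed, among them E2f1, the activator of this programme, with 10.39, 10.75 and 10.70 against 9.73 (0.88 ± 0.16, adjusted p = 0.00084), and cyclin E1, Ccne1 (0.65 ± 0.16).

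Mitotic genes gave 19 of 49 higher and 0 lower, beside 4.38% of all genes called higher, with a median of 0.46. The untransfected value lay below the control values for 45 of the 49, beside 6718 of all 19938 genes. It lay below all 24 transfected values for 0 of the 49, beside 6.38% of all genes. Mimic group means of the list ran from 9.97 to 10.84. The 19 became 12, 11 and 6 without control replicate 1, 2 and 3. They became 11 with the median of each array set to 0, where the median difference stayed at 0.41. The control means of the list were 10.84, 10.85 and 10.86, against 10.41 in the untransfected cells and 9.49 in the myotubes. Promoters of mitotic genes carry a short element, the CHR, at which cell cycle repressors sit in resting cells. TTTGAA on either strand was in 30 of 40 mitotic promoters (75.0%), in 12 of the 17 among called members (70.6%) and in 15.2% of all promoters. The element was in 18.4% of promoters over all genes called higher and in 12.8% over all called lower. Top2a, the topoisomerase that untangles sister chromosomes, is shown because it holds it at 2 places, 179 and 23 bases before its start, at chr11:99024140-99024439 on the minus strand.
Top2a: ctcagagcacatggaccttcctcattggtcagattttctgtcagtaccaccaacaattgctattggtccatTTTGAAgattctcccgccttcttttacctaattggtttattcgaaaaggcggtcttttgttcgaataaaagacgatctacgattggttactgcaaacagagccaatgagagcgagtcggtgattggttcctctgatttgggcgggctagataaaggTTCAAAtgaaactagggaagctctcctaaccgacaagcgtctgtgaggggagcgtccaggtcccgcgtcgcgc

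Top2a had 11.63, 11.62 and 11.67 in the control and 11.07 in the untransfected cells (0.57 ± 0.16, adjusted p = 0.0299). It did not pass without control replicate 2 (adjusted p = 0.055) or 3 (adjusted p = 0.07). Kif23, the motor that forms the central spindle, had 11.34, 11.49 and 11.48 against 10.67 (0.76 ± 0.12, adjusted p = 0.00012), and 9.41 in the myotubes. The kinetochore protein Spc25 had 10.01, 10.15 and 10.22 against 9.35 (0.78 ± 0.19, adjusted p = 0.0121). The proliferation marker Mki67 had 11.72, 11.82 and 11.95 against 11.09 (0.74 ± 0.19, adjusted p = 0.0175), but did not pass without control replicate 3 (adjusted p = 0.057). By role, 6 of 11 kinetochore and checkpoint genes, 4 of 14 spindle genes and 3 of 14 kinases and cyclins passed. Over all genes, 4.38% passed as higher. Cdk1 (0.37), Ccna2 (0.23) and Plk1 (0.32) did not pass.

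Of 14 measured replication-dependent histone genes, 9 passed as higher and 1 as lower, beside 4.38% and 4.68% of all genes. The list median was 0.68. The linker histone H1f1 had 11.29 ± 0.26 (SD, n = 3) in the control against 10.13 (1.16 ± 0.27, adjusted p = 0.00714), and 7.57 in the myotubes. H3c15 ranked 2 among the increases of called genes that reached the median level of all genes. It had 9.18, 9.47 and 9.81 against 7.38, though near-identical histone copies were not separated here and its level is uncertain. H2bc4 was the 1 that fell (-0.60), and its highest value was that of the myotubes, 13.29.

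Regulators of G1, the phase in which a cell decides whether to divide, moved both ways, with a median near 0. Of 24, 3 passed as higher and 2 as lower, beside 4.38% and 4.68% of all genes. The 3 became 1 with the median of each array set to 0. Cdk6, the kinase that blocks muscle differentiation when active, had 11.67, 11.71 and 11.71 against 10.72 (0.97 ± 0.11, adjusted p = 3.7e-06). Rb1, the retinoblastoma protein that holds E2F in check and is needed for cell cycle exit, had 10.55, 10.51 and 10.47 against 11.46 (-0.94 ± 0.13, adjusted p = 3.2e-05), and 12.15 in the myotubes. Cyclin D1 (Ccnd1, 0.21) and the inhibitors Cdkn1b (0.06) and Cdkn1c (-0.31) did not pass. For Cdk6 the untransfected value lay within the range of the 7 mimic group means, 10.27 to 11.21, and the control mean, 11.70, lay above that range.

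**Figure D4:**
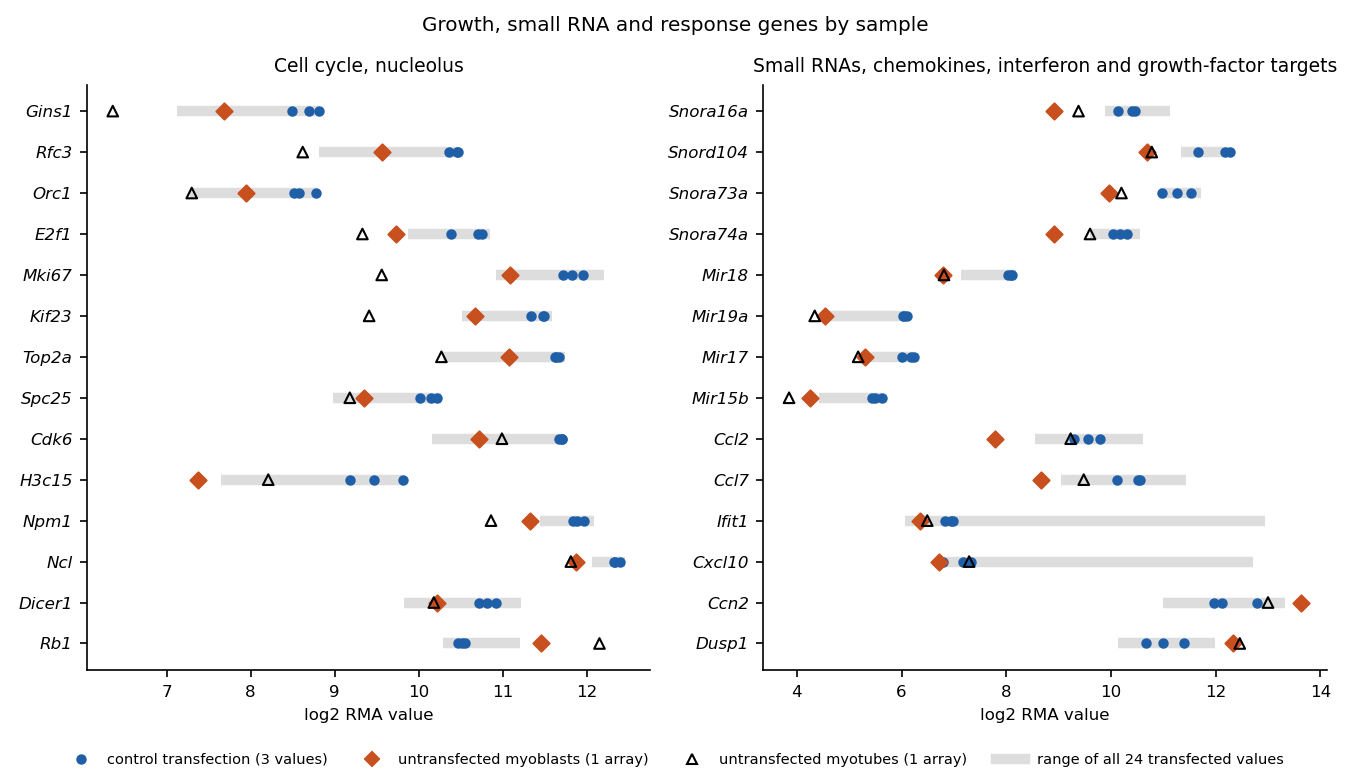
Log2 RMA values (x axis) of 14 cell cycle and nucleolar genes and of 14 small RNA, chemokine, interferon and growth factor target genes, drawn as 3 control values (blue dots), the untransfected myoblast array (orange diamond), the myotube array (triangle) and the range of all 24 transfected values (grey). For the small nucleolar RNAs the diamond lies left of the grey range, as for Snora16a at 8.92, whereas for Gins1 and Kif23 it lies inside it.

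Small nucleolar RNAs, which guide the chemical modification of ribosomal RNA, were higher after control transfection. Of 51 with a probe set, 20 passed as higher and 0 as lower, beside 4.38% of all genes called higher, with a median of 0.79. The untransfected value was below all 3 control values for 44, beside 6718 of all 19938 genes. It was below all 24 transfected values for 27 (52.9%, against 6.38% of all genes). The list means were 9.03, 8.95 and 8.76 in the control (8.91 ± 0.14, SD, n = 3), 8.20 in untransfected myoblasts and 8.41 in myotubes, and the 7 mimic groups averaged 8.64 to 8.89. Both untransfected arrays were below all 8 transfected groups. Transfection and array batch cannot be told apart here, since the labels give no batch.

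Snora16a had 10.14, 10.46 and 10.41 in the control, 8.92 in the untransfected myoblasts and 9.38 in the myotubes (1.42 ± 0.29, adjusted p = 0.00287). Snord104 had 11.66, 12.27 and 12.17 against 10.68 and 10.78 (1.35 ± 0.31), and Snora73a, which acts in ribosomal RNA cleavage, had 10.98, 11.27 and 11.52 against 9.96 and 10.20 (1.29 ± 0.24). Most of these RNAs are cut from introns of other genes. Of the 51, 29 lay within the span of exactly 1 gene that was itself tested, strand not considered. These made 25 containing genes, of which 5 passed as higher and 0 as lower, with a median of 0.18. Over all genes, 4.38% passed as higher and 4.68% as lower. For the 20 RNAs that passed, 8 lay within 7 such genes, of which 2 passed as higher and 0 as lower, with a median of 0.19. Ncl passed at 0.48, and Snora75 (0.6) and Snord82 (0.08) within it did not pass. Snora21 differed by 1.02 and its containing gene Rpl23 by 0.08. Snora31 differed by 1.17 and Tpt1 by 0.06, and Snord15a differed by 0.82 and Rps3 by 0.13. These pairs were picked after their values were seen, and Snora21 and Snora31 did not pass without control replicate 1 (adjusted p = 0.058 and 0.11) or 2 (adjusted p = 0.056 and 0.095).

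Genes for proteins that build the ribosome were measured beside these RNAs. Of 29 ribosome biogenesis genes, 6 passed as higher and 0 as lower, with a median of 0.19, beside 4.38% of all genes called higher. The nucleolar chaperone Npm1 had 11.88, 11.97 and 11.84 against 11.32 (0.58 ± 0.13, adjusted p = 0.00466), nucleolin, Ncl, had 12.33, 12.32 and 12.40 against 11.87 (0.48 ± 0.09), and the snoRNA-bound methylase fibrillarin, Fbl, differed by 0.44. Of 21 ribosomal protein genes 2 passed as higher, Rpl8 and Rps7, with a median of 0.14, beside 4.38% of all genes called higher. The count was 0 without control replicate 3 (adjusted p = 0.058 for Rpl8 and 0.12 for Rps7) and 0 with the median of each array set to 0.

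MicroRNA loci on the array report the precursor or its primary transcript, not the mature microRNA. Of 300 precursor genes, 14 passed as higher and 0 as lower, and the 14 are a share near the 4.38% of all genes called higher. In both groups 184 were dim, and the median difference of 0.05 turned to -0.02 under further quantile normalization. The 14 became 9 without control replicate 3 and 9 with the median of each array set to 0. They included 4 neighbours in 1 cluster at chr14:115043684-115044240 (plus strand, GRCm38.p6), Mir17, Mir18, Mir19a and Mir20a, a cluster known for driving proliferation. Also among them were Mir15a, Mir15b and Mir16-2, of a family known for restraining it, and Mir301 and Mir301b. Their mature sequences (RefSeq) are shown so that shared seeds, bases 2 to 8 in capitals, can be seen.
miR-17-5p: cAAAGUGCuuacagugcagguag
miR-20a-5p: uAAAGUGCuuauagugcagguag
miR-18a-5p: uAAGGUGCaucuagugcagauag
miR-19a-3p: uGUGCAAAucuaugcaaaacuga
miR-301a-3p: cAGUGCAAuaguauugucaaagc
miR-15a-5p: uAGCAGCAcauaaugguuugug
miR-15b-5p: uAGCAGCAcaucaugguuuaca
miR-16-5p: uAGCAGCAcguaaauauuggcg
miR-17-5p and miR-20a-5p share the seed AAAGUGC, and miR-15a-5p, miR-15b-5p and miR-16-5p share AGCAGCA.

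The precursor Mir18 had 8.04, 8.10 and 8.09 in the control, 6.80 in the untransfected myoblasts and 6.81 in the myotubes (1.27 ± 0.29, adjusted p = 0.00723). Mir19a had 6.10, 6.03 and 6.04 against 4.54 (1.51 ± 0.32), and Mir15b had 5.50, 5.62 and 5.43 against 4.25 (1.27 ± 0.29). Both passed without any 1 of the control replicates. Mir17 (0.83) and Mir20a (0.73) passed with smaller differences, but Mir17 not without control replicate 1 (adjusted p = 0.056) or 3 (adjusted p = 0.063), and Mir20a in no case with 1 of the 3 left out (adjusted p = 0.1, 0.058 and 0.058). Mir15a (1.25) and Mir16-2 (0.43) did not pass without control replicate 2 (adjusted p = 0.091 and 0.088) or 3 (adjusted p = 0.099 and 0.11). Mir19a, Mir15b, Mir17 and Mir20a are dim, below the median of 6.65 of probe sets with no listed gene. Mir15b and Mir16-2 lie within the mitotic gene Smc4, which differed by 0.37 and did not pass. Except for Mir18, these precursors were picked after their values were seen.

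Genes that make and load microRNAs were higher in 5 of 19 cases and lower in 0, beside 4.38% of all genes called higher. The list median was 0.18, and the 5 became 3 with the median of each array set to 0. Dicer1, which cuts precursors, had 10.92, 10.72 and 10.81 against 10.22 (0.59 ± 0.15, adjusted p = 0.0117). Both of its double-stranded RNA-binding partners passed: Tarbp2 had 10.34, 10.40 and 10.43 against 9.78 (0.61 ± 0.13, adjusted p = 0.00325), and Prkra had 8.61, 8.55 and 8.57 against 7.87 (0.70 ± 0.12, adjusted p = 0.00056). Ago2, the slicing Argonaute that takes up small interfering RNAs, had 11.86, 11.86 and 11.93 against 11.92 and did not pass.

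Interferon-stimulated genes showed no called member. In limma 0 of 43 passed, with a median of 0.04 that was -0.03 under further quantile normalization, beside 4252 of all genes at an unadjusted p under 0.05 and 9.06% called. The untransfected value was below the control values for 18 and above them for 11, beside 6718 and 6777 of all 19938 genes. Ifit1, one of the most inducible, had 6.83, 6.99 and 6.94 in the control and 6.35 in the untransfected cells (0.57 ± 0.82, adjusted p = 0.801). One transfected replicate, of the miR-145 group, reached 12.94 for Ifit1, and the median standard error of the list was 0.50 against 0.14 for all genes. When the miR-145 group was left out, 3 passed: Samd9l (0.96, adjusted p = 0.0154) and the dsRNA-activated kinase Eif2ak2 (0.51, adjusted p = 0.036) were higher and Lgals3bp (-0.57, adjusted p = 0.0313) was lower. With the control and the untransfected array alone, Ifit1 passed as a 4th (adjusted p = 0.0141). The list averaged 7.25 in the control, 7.22 in untransfected myoblasts and 8.67 in the miR-145 group.

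Of 16 sensors and adaptors of double-stranded RNA, Prkra was the 1 that passed, beside 9.06% of all genes called. The endosomal receptor Tlr3 had 6.70, 6.72 and 6.66 against 6.53 and the cytosolic receptors Ifih1 and Ddx58 differed by 0.29 and 0.28. Their standard errors were 0.55, 0.61 and 0.47, several times the median over all genes. Of 13 genes of class I antigen presentation Erap1 passed (0.68), and B2m (-0.22) did not.

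Of 30 interferon and NF-kB cytokine genes 3 passed as higher and 1 as lower, beside 4.38% and 4.68% of all genes. The 2 neighbouring monocyte chemokines were among the largest increases of all genes: Ccl2 had 9.79, 9.57 and 9.29 in the control and 7.79 in the untransfected cells (1.76 ± 0.52, adjusted p = 0.0345), and Ccl7 had 10.56, 10.51 and 10.12 against 8.66 (1.74 ± 0.41, adjusted p = 0.00873). For both, the untransfected value lay below every transfected one, while the myotubes stood at 9.23 and 9.48, inside the transfected range. Ccl2 did not pass without control replicate 1 (adjusted p = 0.072) or 2 (adjusted p = 0.069), whereas Ccl7 passed without any 1 of the 3. The adhesion molecule Vcam1 was higher by 0.55 (adjusted p = 0.00931). Cxcl10 (0.38, adjusted p = 0.876), Ccl5 (0.24) and Il6 (0.15) did not pass, Il6 being dim at 4.76 in the untransfected cells. Their standard errors were 0.77, 0.43 and 0.51, against a median of 0.14 over all genes, so a moderate difference could not pass here. Saa3, an acute phase protein, fell by 0.45 at an adjusted p of 0.0499, and did not pass without control replicate 1 (adjusted p = 0.14) or 3 (adjusted p = 0.057).

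Several of the largest increases belong to none of these groups. Prrg4, a membrane protein with a Gla domain, had 9.28, 9.48 and 9.41 against 7.19, a 4.62-fold difference (2.21 ± 0.38, adjusted p = 0.00046), and 10.33 in the myotubes, so here both the control and the myotubes stood above the untransfected myoblasts. Prrg4 reached as low as 7.12 in a transfected sample. Cd24a, a small sialylated surface protein, had 11.55, 11.66 and 11.70 against 9.85 (1.79 ± 0.19, adjusted p = 1.3e-06), with 11.70 in the myotubes, and its untransfected myoblast value lay below all 24 transfected ones. The ephrin receptor Epha3 had 9.01, 8.66 and 9.21 against 7.38 (1.58 ± 0.23), with 6.53 in the myotubes. Its untransfected myoblast value lay within the range of the mimic group means, 7.31 to 8.88. The lymphatic growth factor Vegfc had 9.32, 8.90 and 9.19 against 7.74 (1.40 ± 0.21), and the nucleosome-binding Hmgn5 differed by 1.29.

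Genes of lipid uptake and handling were called about as often as all genes, of which 9.06% passed. Of 21 genes of sterol synthesis and uptake 1 passed, the cholesterol carrier Stard4 (0.65 ± 0.13, adjusted p = 0.00239), with a list median of 0.16. Of 28 genes of fatty acid synthesis 1 passed in each direction, Acaca higher (0.48) and Lpl lower (-0.70), and neither passed without control replicate 3 (adjusted p = 0.085 and 0.067), nor Lpl without control replicate 1 (adjusted p = 0.12). The exception was Cd36, the fatty acid transporter of muscle, with 6.92, 6.09 and 6.67 against 9.15 (-2.59 ± 0.56, adjusted p = 0.00389), and 10.40 in the myotubes. Of 25 endocytosis genes, Cav3 (-1.47), Cavin2 (-1.14) and Ehd4 (-0.30) passed as lower and the clathrin light chain Clta (0.32) as higher. Ehd4 and Clta did not pass without control replicate 2 (adjusted p = 0.12 and 0.061) or 3. Of 29 lysosome and autophagy genes, Wipi1 (-0.63) and Sqstm1 (0.31) passed, the latter not without control replicate 2 (adjusted p = 0.075) or 3.

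Stress genes were called in both directions, beside 9.06% of all genes called either way. Of 33 targets of ATF4 and the unfolded protein response 4 passed as lower and 0 as higher: the amino acid transporter Slc7a3 (-0.95), the hormone Fgf21 (-0.80), the mitochondrial folate enzyme Aldh1l2 (-0.80) and the transcription factor Xbp1 (-0.35). Atf4 (0.11), Hspa5 (-0.05) and Ddit3 (0.62, adjusted p = 0.0532) did not pass. Of 23 NRF2 targets, ferritin light chain, Ftl1 (0.37 ± 0.06, adjusted p = 0.00058), and glutathione reductase, Gsr (0.49), passed as higher; heme oxygenase, Hmox1, had 11.22, 11.35 and 11.30 against 10.35 and did not pass (0.94 ± 0.30, adjusted p = 0.0528). Gsr did not pass with the median of each array set to 0. For Hmox1 and Ddit3 the untransfected value lay below all 24 transfected values, as for 6.38% of all genes. Of 19 heat shock and chaperone genes 3 passed as lower and 3 as higher. The small heat shock proteins of muscle, Hspb8 (-0.98), Cryab (-0.58) and Hspb1 (-0.45), passed as lower. The mitochondrial pair Hspd1 (0.27) and Hspe1 (0.40) passed as higher, though not without control replicate 3 (adjusted p = 0.053 and 0.06), where none of the 3 higher calls was left. Of 26 p53 targets 1 passed as higher and 2 as lower, with a median of -0.05.

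In energy metabolism, 10 of 32 genes of oxidative phosphorylation passed as higher and 0 as lower, beside 4.38% of all genes called higher. The list median was 0.19. The 10 became 3 without control replicate 2, 3 without control replicate 3 and 4 with the median of each array set to 0. Cox6a1 had 11.66, 11.74 and 11.69 against 11.22 (0.48 ± 0.07, adjusted p = 0.00013), and for 13 of the 32 the untransfected value lay below every transfected one. Over all genes that share was 6.38%. Glycolysis differed less: of 27 genes Pgk1 passed (0.38), with a median of -0.01 that turned positive, up to 0.03, in 1 or more of the alternatives. Beside 4.68% of all genes called lower, 4 of 24 FoxO targets passed as lower. These included both atrophy ubiquitin ligases, Fbxo32, with 9.69, 9.22 and 9.18 against 10.42 (-1.06 ± 0.20), and Trim63, with 7.47, 7.65 and 7.46 against 8.31 (-0.78 ± 0.20). Txnip was the 1 that passed as higher (0.86), though not without control replicate 2 (adjusted p = 0.092) or 3 (adjusted p = 0.1).

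Inhibitors of myogenesis and Notch genes, which hold satellite cells undifferentiated, were called at a share near or below the 9.06% of all genes. Of 24 inhibitors, Bhlhe41 passed as higher (0.64) and Hdac9 as lower (-0.43). Hdac9 did not pass without control replicate 2 (adjusted p = 0.071), and Bhlhe41 did not pass when any 1 of the control replicates was left out (adjusted p = 0.053, 0.12 and 0.097). Id1 (0.06) and Id3 (0.31), which bind myogenic partners, did not pass. Of 19 Notch genes the ligand Jag2 passed as higher (0.63 ± 0.17, adjusted p = 0.0173, limma), and Hes1 (0.33) and Hey1 (0.49) did not. Jag2 did not pass with the median of each array set to 0.

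Set beside the other groups, the control transfections were not the extreme in muscle genes. Over the 53 sarcomere genes the mimic group with the lowest mean was Let-7b, at 9.06, and the highest miR-1, at 9.99, with the control at 9.30, so that all 8 transfected groups were below the untransfected myoblasts at 10.85. For DNA replication genes miR-1 had the lowest mimic mean, 9.35, and miR-145 the highest, 10.25. The untransfected myoblasts, at 9.90, lay within that range and below the control, at 10.37. For YAP targets the untransfected myoblasts, at 10.60, were above the control (10.34, 10.02 and 10.09), the myotubes (10.31) and the mimic groups (10.09 to 10.37). These levels share the control and the untransfected array with the comparison above and are given side by side, without a test.

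**Figure D5:**
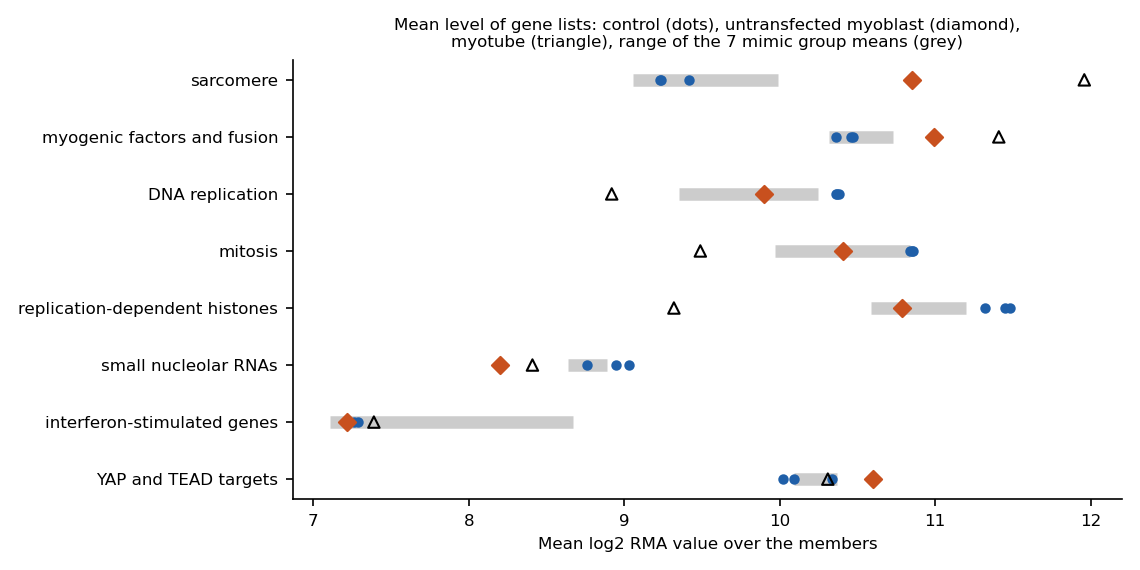
Mean log2 RMA value over the members of 8 gene lists (x axis) in each control transfection (blue dots), in untransfected myoblasts (orange diamond), in untransfected myotubes (triangle) and as the range of the 7 mimic group means (grey). The untransfected myoblasts lie outside the transfected groups for sarcomere genes (10.85) and small nucleolar RNAs (8.20), and inside the mimic range for DNA replication (9.90) and mitosis (10.41).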

How the data were processed

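Total RNA of C2C12 cells was measured on Affymetrix mouse gene arrays. The deposited values are log2 expression values that the authors made by robust multi-array averaging (RMA) in Affymetrix Expression Console 1.1, per the submitters' processing notes. Filters and the genome build are not given in the sources used here, and arrays give no read depth, so the number of arrays limits the precision. Of 35556 probe sets, 21789 had 1 gene symbol in the platform annotation, 1621 several and 12146 none. Those with 1 symbol gave 19938 genes, and where a gene had several probe sets (999 genes) the one with the highest mean over all arrays was used.

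Each array was averaged with its technical replica where it had one. All groups were fitted in limma 3.58.1 (R 4.3.3) with a variance trend, and p-values were adjusted over all genes by Benjamini and Hochberg at 0.05. The code was tested on simulated data. The numbers 1 to 3 come from the labels, which call them independent experiments, and deviations of same-numbered transfected samples correlated at 0.385, 0.236 and 0.172. The untransfected array has no number, so the replicate number entered only as a random block, in an alternative.

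The comparison and its 34 pathway and 9 marker lists (979 of 1060 entries measured) were chosen with earlier results of these data known. The genes named are the 15 largest changes each way among eligible called genes. Eligible genes had an untransfected value outside the 3 control values, and their higher group mean was at least the median level of all genes. Per list, its first 3 members and up to 5 called ones were also named. Further genes, the small nucleolar RNA and microRNA precursor lists, the roles, the motifs, the containing genes and the comparison with all 24 transfected values were added after values were seen. Of the genes tested, 15614 had a promoter of 300 bases in the RefSeq table, and all 14 called precursors had a mature sequence there. The closing section gives the alternatives tried.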

Additional observations from a re-analysis of the deposited data

How the results depend on the processing

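The untransfected myoblasts were measured once, so their own spread is unknown, and p-values carry only the spread between transfected samples. Over 15 alternatives none of the 143 called genes chosen by the naming rule changed direction; 102 passed in all alternatives that tested them and 41 did not in at least 1. Of 30 further called genes that the text names, 18 passed in all that tested them, 12 did not in at least 1, and 0 changed direction. Some genes named as not passing, among them Hmox1, Ddit3, Myod1, Mcm2 and Cdk1, did pass with the control and untransfected myoblast arrays alone. The total of called genes was 2330 with the control and untransfected myoblast arrays alone, 1991 without miR-145, 1508 with the median of each array set to 0, and 1206 to 1778 when 1 control replicate was left out. With the replicate number as a random replicate block it was 2063, and 0 of these 143 and 30 genes lost their call. Interferon-stimulated genes gave 4 calls with the control and untransfected myoblast arrays alone and 3 without miR-145. DNA replication genes gave 31 called higher with the control and untransfected myoblast arrays alone, 12 with the median of each array set to 0, and 11 to 17 when 1 control replicate was left out. Mitotic genes gave 36, 11 and 6 to 12 in the same order, and small nucleolar RNAs 32, 18 and 14 to 19. Sarcomere genes called lower stayed between 41 and 47. The median changed sign in 9 of 36 lists, and in none of the 10 lists with a median beyond 0.25 in size. Scaling moved the median of all genes from -0.007 to -0.059 at most.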
